A study of Mus musculus with 15 samples.

Results

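Loss of Tet2 alone was compared with wild type (WT) in bone marrow LSK cells, the lineage-negative cells with Sca1 and cKit on their surface that hold the blood stem cells and the earliest progenitors. The comparison took in every gene of the authors' table with a log2 value of at least 0, a level near 1 CPM (counts scaled to a common library size), in 3 or more of the 6 Tet2-/- and WT libraries. This rule kept 13061 of 44827 genes, called members or expressed genes below. Of them 31 (0.237%) differed between the groups at a Benjamini-Hochberg adjusted p below 0.05 in limma, a linear model fitted across all genes. There were 14 higher (0.107%) and 17 lower (0.13%) in Tet2-/-, and 3124 (23.9%) had an unadjusted p below 0.05. The median log2 change of all members was 0.01.

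TET2 is a dioxygenase that oxidises 5-methylcytosine and so opens a path to DNA demethylation. It is among the genes most often mutated in myeloid neoplasms and in clonal blood formation of older people. In mice its loss is known to enlarge the LSK compartment and to favour myelomonocytic output over time.

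The groups were 3 WT and 3 Tet2-/- libraries of C57BL/6 mice, numbered as in the labels. The same table holds 3 libraries each of Nras(G12D), of Tet2-/- Nras(G12D) mice without leukemia (the double mutant) and of leukemic Tet2-/- Nras(G12D) mice, 15 libraries in all. The design text speaks of conditional alleles in blood-forming tissue and names 6 months of age for the methylome animals. The sources used here do not name the Cre driver, the deleted part of Tet2 or the animals behind each library. The p-values therefore measure the spread between libraries, which may in part be technical. No treatment is spelled out in the labels. The leukemic libraries carry the letters BMT in their column names and descriptions, which the other libraries lack. No meaning is assigned to these letters here.

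Tet2 itself was read first. In the GRCm38 annotation it spans 133463679 to 133545139 on the minus strand of chromosome 3. Its level was 65.2, 50.7 and 61 CPM in WT 1 to 3 and 35.9, 59.8 and 49.3 CPM in Tet2-/- 1 to 3. The groups overlapped, and the log2 change of -0.31 ± 0.31 (standard error, as for every log2 change below) did not pass (limma, adjusted p = 0.549). A total over the whole gene need not follow a deletion of part of it, so this value does not check the labels. The surface proteins that define the sorted cells were expressed in all 6 libraries. Kit, which encodes cKit, was at 1129.7 to 1421 CPM in WT and 1747 to 2909.6 CPM in Tet2-/-, and Ly6a, which encodes Sca1, at 73.6 to 103 and 109 to 198 CPM. Cd79a of B cells was at most at 12.8 CPM in each of the 6 libraries.

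Before the results, 3 facts on the libraries touch all of them. Total counts were 23821717 to 26079674 in WT and 22733189 to 32761321 in Tet2-/-, so a gene with 0 counts in 1 library is limited to between 0.0906 and 0.127 CPM, for counting error only. Tet2-/- 1 and 3 stood apart from Tet2-/- 2. Across the members Tet2-/- 2 correlated with the WT libraries at a Pearson r of 0.955 to 0.963, and with Tet2-/- 1 and 3 at 0.933 and 0.945, which describes 6 libraries and is not a test. The sexes were also unlike. Ddx3y, on the Y chromosome, was at 0.457 CPM or less in WT and at 259, 179 and 0 CPM in Tet2-/- 1 to 3, whereas Xist was at 366 to 489.8 CPM in WT and at 0.212, 0.181 and 639 CPM in Tet2-/-. Neither Tet2-/- split follows the other, since libraries 1 and 3 stood apart and libraries 1 and 2 carried Y-linked transcripts. Of the 447 members on the X chromosome 0 were called, against 0.237% of all members. Xist itself was not called (limma, log2 -7.11 ± 3.33, adjusted p = 0.211), so nothing on sex is read from this count.

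Tet2-/- 1 and 3 differed from WT along the GC content of genes. Among the 12757 members with a GC value (97.7%), those in the highest of 5 equal GC classes (54.9% to 73.7%) had a median log2 difference from the WT mean of -0.69 in Tet2-/- 1, -0.10 in Tet2-/- 2 and -0.72 in Tet2-/- 3. In the lowest GC class (29.6% to 43.5%) the medians were 0.29, 0.04 and 0.40. Only 25.8% of the members in the highest class lay above WT, against 64.9% in the lowest. The part of this shift in each result below was not tested beyond the values given, which include each Tet2-/- library by itself.

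**Figure D1:**
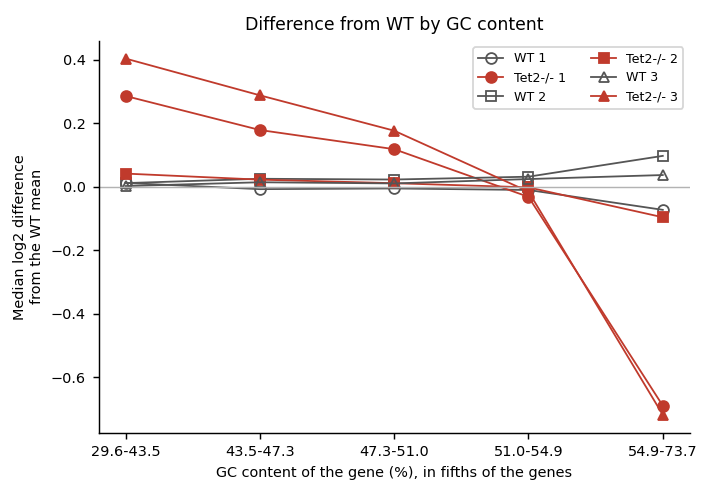
Median log2 difference of each library from the WT mean (vertical axis) over members sorted into 5 equal classes by GC content (horizontal axis, %); each line is 1 library. Tet2-/- 1 and 3 fall to -0.69 and -0.72 in the highest class, while Tet2-/- 2 at -0.10 runs close to the WT libraries.

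The called genes differed by a log2 of 1.48 or more, and 28 of the 31 by 2 or more. Of them 5 had a WT mean below 1 CPM and 9 a Tet2-/- mean below 1 CPM. Such genes entered through the group where they are expressed. In the rises Tet2-/- 3 was highest in 13 of 14, and Tet2-/- 1 was lowest in 10 and Tet2-/- 2 in 4. In the falls WT 2 was the lowest WT library in 14 of 17. The share of all members with each order was not counted.

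**Figure D2:**
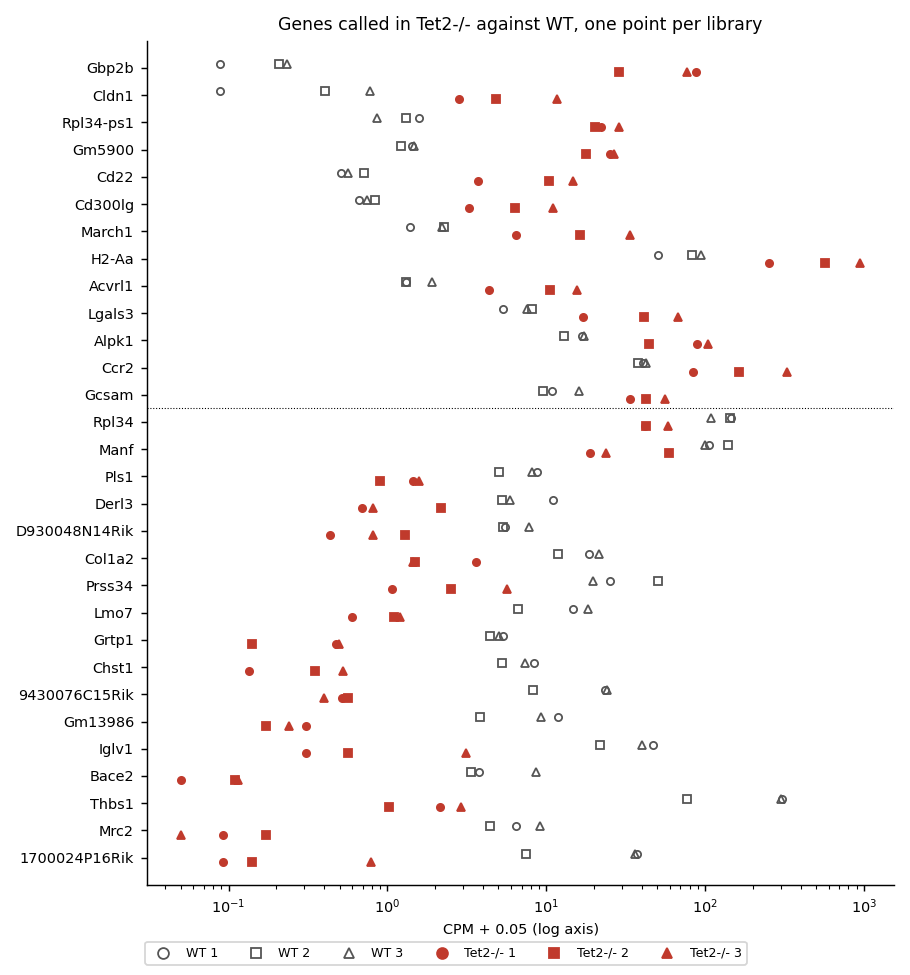
CPM plus 0.05 (horizontal, log axis) of the called genes named on the vertical axis in each of the 3 WT (open) and 3 Tet2-/- (filled) libraries, with rises above the dotted line and falls below it. In every gene shown the 3 filled points lie on 1 side of the 3 open points, and Tet2-/- 3 is highest in each rise shown except Gbp2b.

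The calls leaned on single libraries. There were 54 without Tet2-/- 1, 2162 without Tet2-/- 2, 13 without Tet2-/- 3, and 5, 6 and 8 without WT 1, 2 or 3, against 31 with all. Only Thbs1, Chst1, Gm5900, Rpl34-ps1 and Gbp2b were called in all 6 of these fits. Each of the other 26 lost its call in at least 2 of them, always including the fit without WT 1, and kept its direction. Losses in other alternatives are named below for some genes only, so a gene without such a statement need not have kept its call. The fit without Tet2-/- 2 called 401 higher and 1761 lower, that without Tet2-/- 1 39 and 15. Scaling by total counts called 10 higher and 18 lower, quantile normalization 84 and 48, and median centring, which moved the median of all members to 0.25, called 59 and 28.

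MHC class II genes formed the highest-standing list in Tet2-/- LSK cells. These genes encode the proteins that present peptides to CD4+ T cells, and Ciita encodes the factor that switches them on through a set of boxes in their promoters. H2-Aa, the alpha chain of the I-A molecule, was at 50.8, 83 and 94.4 CPM in WT 1 to 3 and at 254, 567 and 952 CPM in Tet2-/- 1 to 3. All 3 Tet2-/- libraries were above all WT libraries, and they were spread widely. Its log2 change was 2.81 ± 0.53, and the rise passed (limma, adjusted p = 0.0486). That call was lost when the libraries were scaled by total counts (2.73, adjusted p = 0.07) and after correction for GC content and length (2.69, adjusted p = 0.0862). It was also lost with 0.1 added to each count, in the fit of only the 6 libraries and in the fit without the leukemic libraries.

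The other members of the class II list did not pass. All 14 expressed members were above 0 with a median log2 change of 1.28, and in 10 of them all Tet2-/- libraries lay above all WT libraries, which held for 22.8% of all members. The list medians were 0.63, 1.33 and 1.75 in Tet2-/- 1, 2 and 3. H2-Ab1, the partner chain of H2-Aa and chosen after its values were seen, overlapped, at 91.5, 184 and 208 CPM in WT and 90.4, 774 and 281 CPM in Tet2-/- (0.83 ± 0.67, limma, adjusted p = 0.446). Ciita was at 5.11, 8.45 and 9.19 CPM in WT and at 20.01, 53.1 and 60.2 CPM in Tet2-/- (log2 2.44 ± 0.52, adjusted p = 0.066). Cd74, the invariant chain that guides class II molecules to the endosome, was at 279 to 308 CPM in WT and 667, 1388 and 2569 CPM in Tet2-/- (2.20 ± 0.58, adjusted p = 0.108). H2-Eb1, the I-E beta chain, was at 36.4 to 72.6 CPM in WT and 89.3, 369 and 326 CPM in Tet2-/-. Cd74 and H2-Eb1 were chosen after their values were seen. H2-DMb1, part of the editor that loads peptides, was at 37.2 to 42.8 CPM against 92.2, 107 and 156 CPM (1.54 ± 0.34, adjusted p = 0.0893). The ubiquitin ligase gene March1, whose product removes class II molecules from the cell surface, is not on the list and passed the test. It was at 1.33, 2.23 and 2.16 CPM in WT and rose to 6.41, 16.2 and 33.6 CPM (3.02 ± 0.54, adjusted p = 0.0323). March1 lost its call under scaling by total counts (adjusted p = 0.0529), in the fit of only the 6 libraries (0.074) and after the GC correction (0.062).

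The promoters of H2-Aa and H2-Eb1 are shown because all Tet2-/- libraries lay above all WT libraries in both, though H2-Eb1 was not called. That of H2-Ab1, which overlapped, is not shown. They are RefSeq windows on GRCm38.p6 from 250 bases before to 50 after the start, read 5′ to 3′ on the gene's strand, chr17:34287774-34288073 (minus strand) for H2-Aa and chr17:34305617-34305916 (plus strand) for H2-Eb1. Capitals mark matches to CCAAT or its reverse ATTGG, the core of the Y box, and to TGACGTCA, the core of the X2 box, searched on both strands.
H2-Aa: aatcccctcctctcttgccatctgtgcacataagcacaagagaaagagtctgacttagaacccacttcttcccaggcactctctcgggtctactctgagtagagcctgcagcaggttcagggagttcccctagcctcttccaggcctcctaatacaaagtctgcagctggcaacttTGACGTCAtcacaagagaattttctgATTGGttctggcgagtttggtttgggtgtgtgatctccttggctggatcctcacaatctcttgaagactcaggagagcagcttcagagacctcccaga
H2-Eb1: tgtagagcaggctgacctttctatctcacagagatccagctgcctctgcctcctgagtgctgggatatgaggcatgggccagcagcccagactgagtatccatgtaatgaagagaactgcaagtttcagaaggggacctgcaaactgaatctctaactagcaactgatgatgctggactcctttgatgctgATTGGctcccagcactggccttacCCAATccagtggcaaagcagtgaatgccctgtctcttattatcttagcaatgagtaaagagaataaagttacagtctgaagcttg
In H2-Aa, TGACGTCA starts 74 bases and ATTGG 48 bases before the gene's start. In H2-Eb1, ATTGG starts 59 bases and CCAAT 35 bases before it, and TGACGTCA was not found. Of 32851 promoter windows 37.4% hold CCAAT and 1.79% hold TGACGTCA on either strand, so a match describes the sequence and is not a site of binding.

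Monocyte and dendritic cell genes also stood higher. The chemokine receptor gene Ccr2, which brings monocytes out of the marrow, was at 40.5, 37.7 and 42.2 CPM in WT and rose to 84.5, 163 and 329 CPM in Tet2-/- (log2 2.04 ± 0.37, limma, adjusted p = 0.0335). Lgals3, encoding galectin-3 of macrophages, was at 5.3, 8.14 and 7.47 CPM and rose to 16.9, 41 and 67.1 CPM (2.39 ± 0.39, adjusted p = 0.0219). Ccr2 lost its call when the libraries were scaled by total counts (adjusted p = 0.0534), in a fit of only the 6 libraries (0.0838) and after the GC correction (0.0866). Lgals3 lost its call in the fit of only the 6 libraries. The groups did not overlap in either gene, and WT varied far less than Tet2-/-. All 16 expressed members of the monocyte list were above 0, 2 of them called, and 10 had no overlap (22.8% of all members). The list median was 0.74 overall and 0.48, 0.22 and 1.41 in Tet2-/- 1 to 3, so that it was 0.38 without Tet2-/- 3. Mpeg1, a pore-forming protein of phagocytes, was at 39.6 to 45.6 CPM in WT and 87.2, 196 and 439 CPM in Tet2-/- (2.18 ± 0.46, adjusted p = 0.066).

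Of 16 dendritic cell genes 13 were above 0, none was called and 9 lay wholly above WT, as did 22.8% of all members (median 0.71). Id2, a regulator needed for conventional dendritic cells, was at 19.7, 26.1 and 24.2 CPM in WT and 74.8, 156 and 282 CPM in Tet2-/- (log2 2.68 ± 0.53, limma, adjusted p = 0.0524). Itgax, which encodes CD11c, was at 4.03 to 5.68 CPM against 11, 35.8 and 33.8 CPM (2.25 ± 0.47, adjusted p = 0.066). Irf4 went the other way, from 14.9, 6.06 and 10.7 CPM to 2.25, 3.08 and 5.04 CPM (-1.59 ± 0.45, adjusted p = 0.11). The CPM of the 16 dendritic cell genes summed to between 931 and 1186 in WT and to 786, 2003 and 1640.3 in Tet2-/- 1 to 3. In bulk RNA more cells of a type and more RNA of these genes per cell cannot be told apart, here and in the groups below.

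Granulocyte lists were less set apart. All 13 expressed mature neutrophil genes were above 0, with a median log2 change of 0.76, and Tet2-/- 2 had a median of 0.26. In 1 of the 13 alone did all Tet2-/- libraries exceed WT, against 22.8% of all members. Of 12 granulocyte-monocyte progenitor genes 8 were above 0 (median 0.29). Of these 12 genes 4 lay wholly above WT and 2 wholly below it, against 22.8% and 12.3% of all members. Fcnb, a ficolin of young granulocytic cells, was at 1.87, 4.69 and 4.25 CPM in WT and 16.9, 12.2 and 17.1 CPM in Tet2-/- (limma, log2 2.18 ± 0.52, adjusted p = 0.108).

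Among the other rises, Cd22, an inhibitory receptor of B cells that binds sialic acid, was at 0.457, 0.665 and 0.513 CPM in WT and rose to 3.65, 10.4 and 14.6 CPM (limma, log2 3.88 ± 0.60, adjusted p = 0.0142). Of the 12 expressed B cell genes it was the sole call, and the list median was 0.37. The tight junction gene Cldn1 (4.42 ± 0.81), Acvrl1, a receptor of the TGF-beta family (2.62 ± 0.45), and Cd300lg (3.10 ± 0.48) rose, each from a WT mean at or below 1.46 CPM to a Tet2-/- mean of 6.38 to 10.1 CPM. Gcsam, which acts in germinal centre B cell motility, was at 9.55 to 15.9 CPM in WT and rose to 33.6, 42.7 and 56.1 CPM (1.87 ± 0.26, adjusted p = 0.00869). Cldn1, Acvrl1, Cd300lg, Cd22 and Gcsam each had Tet2-/- 1 lowest and Tet2-/- 3 highest. Cldn1 lost its call with 0.1 added to each count, with a covariate for Y-linked genes and after the GC correction. Cldn1 and Acvrl1 lost theirs in the fit of only the 6 libraries.

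Among the falls Thbs1 had the highest WT level. It encodes thrombospondin-1, a matrix protein that platelets, stroma and phagocytes release. Thbs1 was at 304, 77.2 and 302 CPM in WT 1 to 3 and fell to 2.08, 0.966 and 2.84 CPM in Tet2-/- (limma, log2 -6.73 ± 0.76, adjusted p = 0.00168). WT 2 lay far below the other WT libraries, and the groups were still far apart. Gm13986, a transcript on the opposite strand that starts 673 bases before Thbs1 and runs away from it, fell from 11.8, 3.76 and 9.15 CPM to 0.255, 0.121 and 0.191 CPM (-5.23 ± 0.90, adjusted p = 0.025). Col1a2, a chain of type I collagen, fell from 18.7, 11.7 and 21.5 CPM to 3.57, 1.45 and 1.4 CPM (-3.10 ± 0.43, adjusted p = 0.00806). The sulfotransferase gene Chst1 fell from 8.27, 5.2 and 7.28 CPM to 0.085, 0.302 and 0.479 CPM (-4.74 ± 0.59, adjusted p = 0.00337). Mrc2, an endocytic receptor for collagen, fell from 6.36, 4.38 and 9.12 CPM to 0.0425, 0.121 and 0 CPM (-6.94 ± 1.19, adjusted p = 0.025). Mrc2 and Gm13986 lost their calls with 0.1 added to each count and with a covariate for Y-linked genes. Mrc2 also lost its call after the GC correction.

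Bace2 (log2 -6.56 ± 0.98), Grtp1 (-4.13 ± 0.62), Lmo7 (-3.76 ± 0.64) and Pls1 (-2.52 ± 0.45), from WT means of 4.87 to 13.2 CPM to Tet2-/- means of 0.0414 to 1.26 CPM, were called lower by limma as well. Bace2 encodes an aspartic protease and Pls1 the actin-bundling protein plastin 1. Of the unnamed models, chosen after their values were seen, 1700024P16Rik (-6.97), 9430076C15Rik (-5.20) and D930048N14Rik (-3.05) fell. Stromal genes as a list did not follow Col1a2. Of 7 expressed members 4 were above 0 (median 0.06), and Pdgfrb was at 70.8 to 95 CPM in WT and 240.3 to 289 CPM in Tet2-/- (1.72 ± 0.64, limma, adjusted p = 0.143).

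Genes of antibody-secreting cells stood lower in Tet2-/-, a list chosen after its values were seen. Derl3, which draws misfolded proteins out of the endoplasmic reticulum, was at 11, 5.24 and 5.82 CPM in WT and fell to 0.637, 2.11 and 0.766 CPM (limma, log2 -2.76 ± 0.44, adjusted p = 0.0184). The light chain segment Iglv1 fell from 47.3, 21.6 and 39.9 CPM to 0.255, 0.513 and 3.06 CPM (-5.49 ± 0.83, adjusted p = 0.0136). Igkc, the kappa constant region, was at 5721, 2038 and 2587 CPM in WT and at 74.7, 343 and 739 CPM in Tet2-/- (-3.55 ± 0.75, adjusted p = 0.066). Jchain, which joins IgM and IgA units, was at 1556, 474 and 639 CPM against 17.1, 95.3 and 191 CPM (-3.52 ± 0.78, adjusted p = 0.085), and Pou2af1, a B-lineage coactivator, at 42.2, 16.7 and 20.3 CPM against 1.1, 4.35 and 5.65 CPM (-3.00 ± 0.60, adjusted p = 0.0524).

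In 15 of the 18 antibody-secreting genes all Tet2-/- libraries lay below all WT libraries, against 12.3% of all members. Only Derl3 passed, and the median was -2.30 with -3.32, -1.70 and -1.87 in Tet2-/- 1 to 3. The summed CPM of the list was 17089.6, 6579 and 8629.8 in WT 1 to 3 and 735, 1927 and 3206 in Tet2-/- 1 to 3. WT 1 was highest and Tet2-/- 1 lowest. The B cell list was mixed, with 7 of 12 above 0. Of its 12 members 3 lay wholly above WT and 4 wholly below it, against 22.8% and 12.3% of all members. The sort removes lineage-positive cells. The part of a few mature cells in these values was not tested.

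Genes of the endoplasmic reticulum stress response stood lower beside them. Manf, a secreted protein induced by such stress, was at 106, 140.0 and 99.6 CPM in WT and fell to 18.9, 59.2 and 23.6 CPM (limma, log2 -1.94 ± 0.36, adjusted p = 0.0429). Tet2-/- 2 again lay nearest to WT. Manf lost its call in each fit without 1 library other than the one without Tet2-/- 2, and in the GC correction (adjusted p = 0.0506). Ern1, which encodes the stress sensor IRE1, was at 98.8, 89.9 and 109 CPM against 29.6, 32.3 and 36.6 CPM (-1.60 ± 0.31, adjusted p = 0.0522), and Xbp1, the factor IRE1 activates by splicing, at 77.1, 103 and 78.7 CPM against 18.7, 31.8 and 26.2 CPM (-1.77 ± 0.44, adjusted p = 0.108). Of 22 list members 18 lay lower, 1 was called and 12 lay wholly below WT, as did 12.3% of all members (median -0.72), while the chaperone gene Hspa5 was at 963 to 1362 CPM against 616 to 850.3 CPM (-0.66 ± 0.31, adjusted p = 0.214). The plasma cell factor Xbp1 belongs to both this and the antibody-secreting list.

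Most erythroid genes lay lower, without a call. Of 21 expressed members 19 were below 0 and 13 lay wholly below WT (12.3% of all members), and their median log2 change was -1.55, or -1.51, -1.49 and -0.94 in Tet2-/- 1 to 3. Klf1, the master regulator of red cell genes, was at 4.88, 17.7 and 10.3 CPM in WT and at 0.467, 1.87 and 0.287 CPM in Tet2-/- (limma, -3.88 ± 1.09, adjusted p = 0.11). Epor, the erythropoietin receptor, was at 7.7 to 14.4 CPM against 1.66, 4.08 and 1.6 CPM (-2.36 ± 0.61, adjusted p = 0.108), and the red cell membrane gene Sptb at 2.4 to 6.49 CPM against 0.17, 0.393 and 0.415 CPM (-3.80 ± 0.89, adjusted p = 0.108). This list was low in Tet2-/- 2 as well, the library closest to WT over all genes. The summed CPM of the list did not fall, at 1972, 2039 and 2202 in WT and 2283, 1994 and 2461 in Tet2-/-. Most of it came from Car2, a carbonic anhydrase gene chosen after its values were seen, at 1103 to 1246 CPM in WT and 1277 to 1696 CPM in Tet2-/-.

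The basophil protease gene Prss34 was at 25.3, 50.4 and 19.5 CPM in WT and fell to 1.02, 2.48 and 5.62 CPM in Tet2-/- (limma, log2 -3.58 ± 0.55, adjusted p = 0.0142). Genes of mast cells, basophils and eosinophils were mixed as a list, with Prss34 as the sole call. Of 13 expressed members 5 were above 0 and 8 below (median -0.38), and the medians were -0.84, -0.34 and 0.42 in Tet2-/- 1 to 3. Wholly above WT lay 2 members and wholly below it 2, against 22.8% and 12.3% of all members. Gata2 was at 92.4 to 154 CPM in WT and 53.2 to 93.3 CPM in Tet2-/-, and the groups overlapped (-0.97 ± 0.39, limma, adjusted p = 0.163). Cpa3, a mast cell protease gene, was at 25.7 to 34.8 CPM in WT and 44.2 to 93.3 CPM in Tet2-/-.

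**Figure D3:**
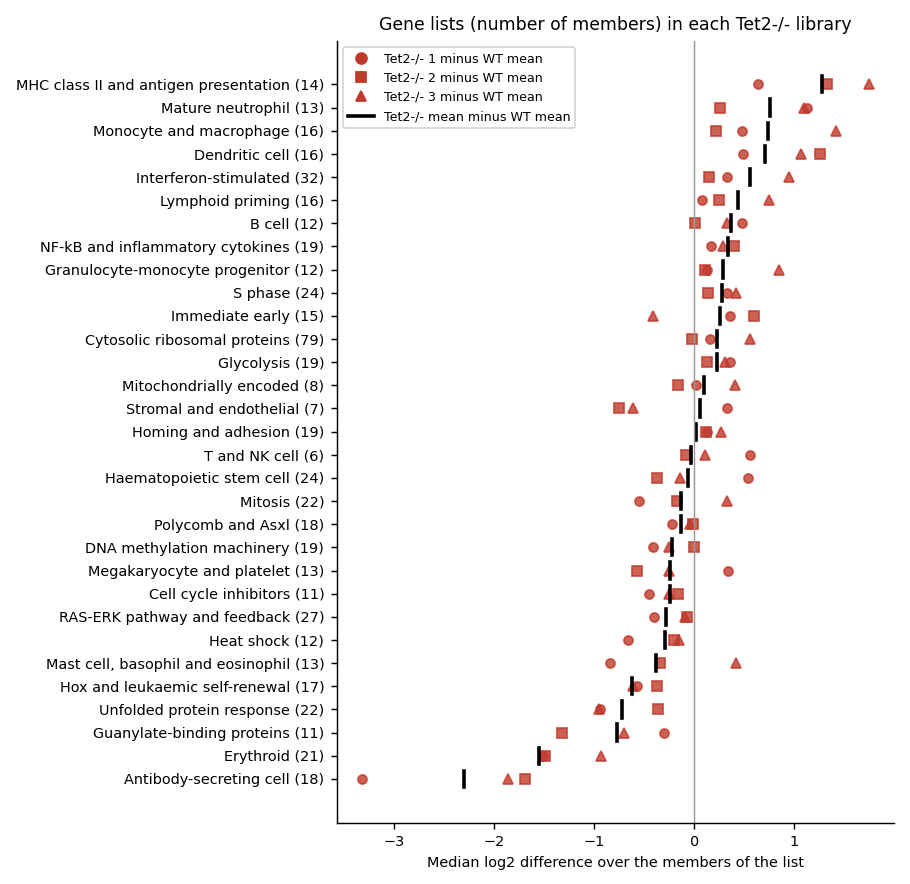
Median log2 difference from the WT mean over the expressed members of each gene list (rows, number of members in parentheses) for each Tet2-/- library (points) and for their mean (bar). In the MHC class II, erythroid and antibody-secreting lists all 3 points lie on 1 side of 0. Many other lists share this, such as the dendritic cell list (0.48, 1.26 and 1.07 in Tet2-/- 1 to 3). The haematopoietic stem cell list runs from 0.54 to -0.38.

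Stem cell genes did not move as a group. Of 24 expressed members 12 were above 0 and none was called, with medians of 0.54, -0.38 and -0.14 in Tet2-/- 1 to 3. Mycn was at 54.5, 96.4 and 107 CPM in WT and 16, 53.1 and 11.6 CPM in Tet2-/- (limma, log2 -1.94 ± 0.78, adjusted p = 0.163). Of 17 Hox and self-renewal genes 4 were above 0 (median -0.63, none called), and of 16 lymphoid priming genes 10 (0.43, none called). Itgb2, the integrin chain of leukocytes, was at 47.7 to 49.6 CPM in WT and 92.9, 133 and 192 CPM in Tet2-/- (limma, 1.45 ± 0.29, adjusted p = 0.0546). Megakaryocyte genes had 5 of 13 above 0 (median -0.25), and the 6 expressed genes of T and NK cells had a median of -0.04.

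The other DNA methylation enzymes gave no call. Of 19 expressed genes of that machinery 6 were above 0 and the median log2 change was -0.22. Tet1 was at 109.5 to 114 CPM in WT and 131 to 183 CPM in Tet2-/- (limma, 0.49 ± 0.48, adjusted p = 0.535). Tet3 was at 72.3 to 91.9 CPM against 29.7, 67.5 and 46 CPM (-0.80 ± 0.32, adjusted p = 0.156), and Idh2, whose product makes the substrate of TET enzymes, at 148, 382 and 311 CPM against 40.1, 174 and 48 CPM (-1.91 ± 0.57, adjusted p = 0.113). Polycomb genes had 6 of 18 above 0 (-0.13).

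Housekeeping lists had small median changes, with single members far out. Cytosolic ribosomal protein genes were above 0 in 68 of 79 (median 0.23), yet Rpl13 was at 271, 521 and 428 CPM in WT and 77.2, 304 and 86 CPM in Tet2-/- (limma, -1.63 ± 0.47, adjusted p = 0.11). Of the S phase genes 18 of 24 were above 0 (0.27). Wholly above WT lay 11 of the 24 and wholly below it 1, against 22.8% and 12.3% of all members. Mcm6, a subunit of the replicative helicase, was at 392, 1082 and 846 CPM against 154, 578 and 154 CPM. Rpl13 and Mcm6 were both lower in Tet2-/- 1 and 3 than in Tet2-/- 2. The medians of the other lists (mitosis, cell cycle inhibitors, glycolysis, heat shock, RAS-ERK, NF-kB, immediate early, homing and mitochondrially encoded genes) lay between -0.29 and 0.34, with Thbs1 as their sole call. Among these, 9 of 19 NF-kB and 6 of 15 immediate early genes lay wholly above WT, and 1 of each wholly below it. The mitosis medians were -0.55, -0.17 and 0.33 in Tet2-/- 1 to 3.

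Interferon-stimulated genes were above 0 in 27 of 32 (median log2 change 0.56), none was called and 13 lay wholly above WT (22.8% of all members). The list medians of 0.33, 0.15 and 0.95 in Tet2-/- 1 to 3 show that library 3 was highest, and the median was 0.19 without it. Guanylate-binding proteins, large GTPases induced by interferon, differed by chromosome, a division chosen after the values were seen. All 5 members on chromosome 3 lay wholly above WT and all 6 on chromosome 5 were below 0, of which 3 lay wholly below WT, against 22.8% above and 12.3% below over all members. Gbp2b, on chromosome 3, was at 0.0381, 0.156 and 0.183 CPM in WT and rose to 88, 28.6 and 76.4 CPM in Tet2-/- (limma, 8.83 ± 1.04, adjusted p = 0.00196), from near the limit of detection. The family member Gbp7, also on chromosome 3, was at 153 to 167 CPM against 324, 198 and 315 CPM (0.75 ± 0.31, adjusted p = 0.169). Gbp11, on chromosome 5, was at 5.41, 1.41 and 4.69 CPM against 0.17, 0 and 0.351 CPM (-5.02 ± 1.79, adjusted p = 0.133), and WT 2 was again the lowest WT library.

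Gbp2b, Alpk1 and Rpl34 lie within 10 Mb of Tet2. In that window 3 of 66 members (4.55%) were called, against 0.237% of all members and 0.467% of the 642 members on chromosome 3. The share was 0 of 6 within 1 Mb, 1 of 45 (2.22%) within 5 Mb and 3 of 143 (2.1%) within 20 Mb. Gbp2b spans 142594847 to 142619179 (plus strand), Alpk1 127670310 to 127780527 and Rpl34 130726831 to 130730398 (both minus strand). Alpk1, a kinase that senses bacterial sugar intermediates, was at 16.8, 12.8 and 17.2 CPM in WT and rose to 88.3, 44.5 and 104 CPM (limma, log2 2.26 ± 0.42, adjusted p = 0.0399), a call lost under scaling by total counts (adjusted p = 0.0571), after the GC correction (0.0571) and in 5 of the 6 fits without 1 library. Rpl34, a protein of the large ribosomal subunit, was at 145, 144 and 109 CPM and fell to 41.8, 42.5 and 58.7 CPM (-1.48 ± 0.24, adjusted p = 0.0206). Ppa2, next to Tet2 among the genes tested, was at 12.7, 31 and 18.5 CPM against 9.6, 15.4 and 12.9 CPM and was not called (adjusted p = 0.394).

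**Figure D4:**
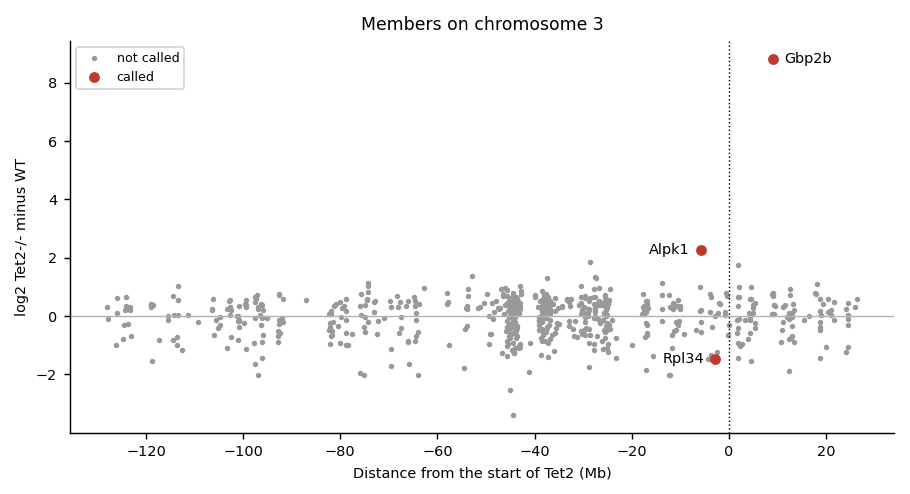
Log2 change in Tet2-/- against WT (vertical axis) of the 642 members on chromosome 3 by distance from the start of Tet2 in Mb (horizontal axis, 0 at the dotted line); filled points are called. The 3 called genes, Alpk1, Rpl34 and Gbp2b, lie within 10 Mb of Tet2.

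On other chromosomes 2 processed pseudogenes that copy genes of this window rose. Rpl34-ps1, on chromosome 6 (71124610 to 71124963, plus strand), matches the Rpl34 coding sequence over 354 bases at 99.4% identity. Gm5900, on chromosome 7 (104949915 to 104950289, minus strand), matches that of Lamtor3, a scaffold protein of lysosomal signalling encoded at 137918506 to 137928900 on chromosome 3, over 375 bases at 99.5% identity. Each pair differs at 2 positions, counted from 1 at the first coding base: T132C and C318G from Rpl34 to Rpl34-ps1, C111T and G336A from Lamtor3 to Gm5900. The windows of 31 bases around the first of each are printed because so few letters separate gene and copy, with the differing base in capitals.
Rpl34: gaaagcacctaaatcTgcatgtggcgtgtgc
Rpl34-ps1: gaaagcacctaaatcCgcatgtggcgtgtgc
Lamtor3: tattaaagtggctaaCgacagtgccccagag
Gm5900: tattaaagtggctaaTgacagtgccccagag

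Rpl34-ps1 was at 1.52, 1.25 and 0.805 CPM in WT and rose to 22, 20.4 and 28.6 CPM in Tet2-/- (limma, log2 4.32 ± 0.39, adjusted p = 0.00013). Gm5900 was at 1.37, 1.17 and 1.43 CPM and rose to 25, 17.7 and 26.5 CPM (4.09 ± 0.28, adjusted p = 8.63e-06). Both were chosen after their values were seen. Neither group's libraries came near those of the other, and Tet2-/- 2 lay close to the other Tet2-/- libraries in Rpl34-ps1. Lamtor3 itself was at 58.9 to 66 CPM and 49.6 to 70.9 CPM (-0.02 ± 0.21, adjusted p = 0.97). Of the 7 expressed processed pseudogenes whose closest coding gene lies within 10 Mb of Tet2, 2 were called, and the other 5 ranged in log2 change from -1.05 to 1.95. Of the 305 processed pseudogenes of other genes 0 were called by limma, and their highest log2 change was 1.35.

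Counting gene and copies together changed the Rpl34 result. With Rpl34-ps1 and Gm10086 added, the total was 134 ± 20.8 CPM in WT and 72.9 ± 14.5 CPM in Tet2-/- (SD, n = 3), a log2 change of -0.88 ± 0.24 that did not pass (limma, adjusted p = 0.108). The copies held 1.18% of that total in WT and 34.5% in Tet2-/-. For Lamtor3 with Gm5900 the total was 63.4 ± 3.67 and 85.1 ± 15.8 CPM (0.41 ± 0.21, adjusted p = 0.247), of which the copy held 2.09% and 27%. Reads of such near-identical sequences may be assigned to either, so the level of each is uncertain. Gene totals do not show which alleles a library carries around Tet2, and this was not tested.

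**Figure D5:**
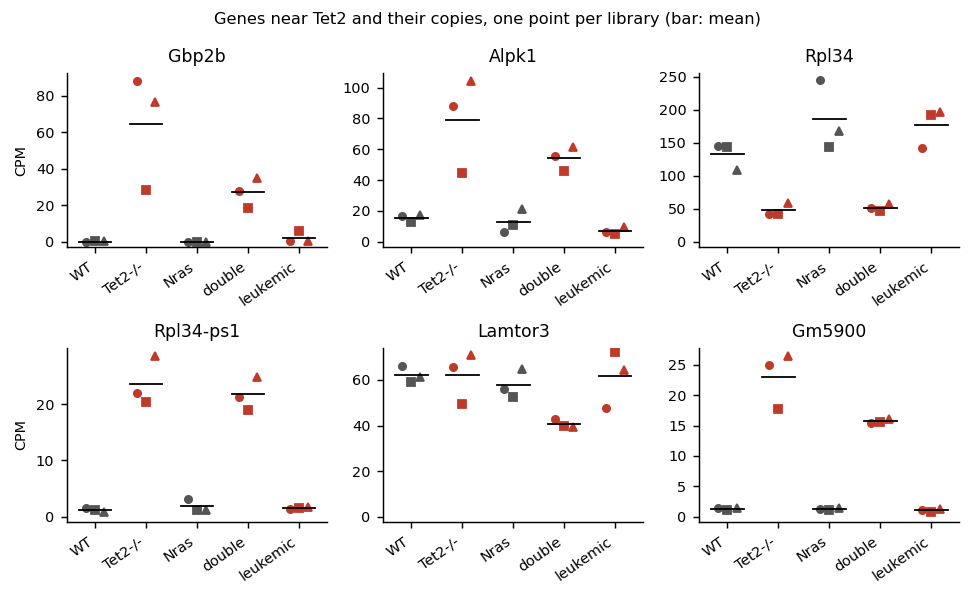
CPM (vertical axis) of 3 called genes near Tet2, of Lamtor3 and of the copies Rpl34-ps1 and Gm5900 in all 15 libraries by group, with Tet2-/- genotypes in red and group means as bars. Outside the Lamtor3 panel the Tet2-/- and double mutant libraries sit apart from WT and Nras(G12D), while the leukemic libraries, also labelled Tet2-/-, sit nearer to WT.

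Whether the called genes change when Tet2 is lost on another background was read from the double mutant against Nras(G12D), which shares no library with Tet2-/- against WT. All 14 rises were above 0 there, and 10 of 17 falls were below 0, where 37.7% of all members had the same sign in both. The median log2 change was 1.37 for the rises and -0.60 for the falls, against 2.96 and -4.13 in Tet2-/- against WT. Only Gbp2b (9.27), Rpl34-ps1 (3.74), Gm5900 (3.60) and Rpl34 (-1.81) were called in both, out of 9 members called there (0.0689%). All 4 belong to the chromosome 3 window or copy a gene of it. Alpk1 was at 2.29 (limma, adjusted p = 0.0674). The difference between the 2 effects was called for 0 members by limma, with 2720 (20.8%) at an unadjusted p below 0.05, among them 23 of the 31. The 31 were chosen on a term of this difference, so that count is no evidence of one.

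The falls and the chromosome 3 genes had different patterns over the other groups. Thbs1 was at 2.69, 7.05 and 29.9 CPM in Nras(G12D), at 0.899 to 2.02 CPM in the double mutant and at 1.89 to 4.93 CPM in leukemic libraries, all below the lowest WT library. Of the 17 falls 10 were lower in all 12 mutant libraries than in all WT libraries, as were 0.597% of all members. In 14 the Nras(G12D) libraries, which have intact Tet2, lay wholly below WT (6.66% of all members). These comparisons use the WT libraries by which the called genes were chosen, so the counts are a description. The exceptions were Prss34, Manf and Rpl34, at 25.8 to 30.9, 77.7 to 130.5 and 143 to 245 CPM in Nras(G12D). Of the 14 rises 9 had all Nras(G12D) libraries above all WT libraries (5.32% of all members). These were H2-Aa, Ccr2, Lgals3, March1, Cd22, Cldn1, Acvrl1, Cd300lg and Gcsam, with Lgals3 at 24.5 to 36.3 CPM. Derl3 was at 1.81 to 2.82 CPM and Igkc at 175 to 924 CPM there, below all WT libraries too.

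The leukemic libraries, marked BMT, carry the Tet2-/- label and did not show the chromosome 3 pattern. Gbp2b was at 0.24, 5.8 and 0.312 CPM, Alpk1 at 4.94 to 9.63 CPM, Rpl34 at 142 to 196 CPM, Rpl34-ps1 at 1.41 to 1.68 CPM and Gm5900 at 0.823 to 1.31 CPM. Of the 14 rises 9 had a leukemic mean below 2 times the WT mean, and in 12 the leukemic libraries lay wholly below Tet2-/- (26.9% of all members). The rises were chosen for high values in these Tet2-/- libraries, so nothing is read from that count. H2-Aa was at 69.7 to 109 CPM in them, against 392 to 665 CPM in the double mutant and 101, 239.8 and 539.6 CPM in Nras(G12D), so the Nras(G12D) libraries, with intact Tet2, lay wholly above WT in this gene as well.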

How the data were processed

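RNA of sorted LSK cells was sequenced from stranded mRNA libraries, per the labels' protocols. The authors deposited 1 table of log2 values per gene and library. This unit was read from the values: with 0.5 added to each count and 1 to a scaled library size, 100% of them return whole counts within 1e-06, and CPM here is that count over the scaled size. The submitters' processing notes name limma 3.28.21, edgeR 3.14.0, STAR 2.4.0f1 and bcl2fastq among the authors' tools, and the builds mm10 and NCBIM37 without a role. The sources used here do not name the counting tool or annotation. Positions are from GENCODE on GRCm38 and matched 97.6% of members by symbol.

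The deposited log2 values were fitted in limma 3.58.1 (R 4.3.3), with moderated variances that follow expression level, over all 15 libraries with 5 group means, which leaves 10 residual degrees of freedom. The fit held the 13927 genes with a log2 value of at least 0 in 3 or more libraries. Tests were two-sided and adjusted by Benjamini-Hochberg over all of these genes, and the 13061 members are reported. The 0.5 added to each count understates the log2 change of low genes. The fit was also run on simulated data, whose outcome is not reported here and lends no weight to the calls. No sample pair of a group agreed within sampling noise. Column N2-3 was taken as Nras(G12D) library 2.

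Named genes are up to 15 rises and 15 falls of largest size among called, named coding genes without overlap and with a mean log2 of at least 2 in the higher group, Tet2, sex-linked genes, the neighbours of Tet2, and up to 4 genes of smallest p per list. Genes outside this rule, Kit, Cd79a, Xbp1, Hspa5, Tet1 and Lamtor3 among them, were chosen after their values were seen. The members and the 32 gene lists were chosen with earlier results of these data known. 1 list, of antibody-secreting cells, was added after its values were seen. Alternatives covered scaling, filters, the added count, voom weights, the libraries in the fit, a replicate block, Y-linked transcripts and GC content. Some genes within this rule were left out of the text and the plot of called genes.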

Additional observations from a re-analysis of the deposited data

How the results depend on the processing

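The number of called genes changed with the scaling, with the weights and with the libraries in the fit. Against 31, quantile normalization gave 132, median centring 87, voom with sample quality weights 6707, a fit of only the 6 libraries 57, of the 12 libraries without the leukemic ones 72, a covariate for Y-linked genes 47, and leaving out the Tet2-/- libraries with Y-linked transcripts 666 (102 higher, 564 lower). Voom gave Tet2-/- 2 a weight of 0.282 and Tet2-/- 1 and 3 weights of 1.71 and 1.45. The planned count models (edgeR, DESeq2) both called more genes than limma on the recovered counts. Their values are not given, since those tools were kept to deposited counts, while voom was run on the recovered counts. Leaving out 1 library gave 5 to 2162. Chosen after seeing the data, the fit without Tet2-/- 1 and 3 together gave 1 (Gm5900, with Tet2-/- 2 assumed to vary like the other groups), and that without the leukemic libraries and Tet2-/- 2 gave 3328. The 9 calls in the double mutant against Nras(G12D) became 21 by quantile normalization, 15 by median centring, 17 by voom, 16 without the leukemic libraries, 7 to 14 without 1 library, and 21 without the leukemic libraries and Tet2-/- 2. The 0 calls for the difference of the Tet2 effect between backgrounds became 5671 by voom, 316 without the Y-linked Tet2-/- libraries, 0 to 1615 without 1 library and 2410 without the leukemic libraries and Tet2-/- 2. The cause of these differences was not tested.

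Whether shared replicate numbers pair the libraries cannot be decided from 3 libraries a group. Deviations from the group means correlated at 0.298, 0.311 and -0.228 for numbers 1 to 3. The shared number gave the highest correlation for Tet2-/- 1 and 2, whereas Tet2-/- 3 correlated best with WT 1 (0.306). A replicate block gave 686 calls (89 higher, 597 lower) with all 15 libraries and 2954 with the 6, and 14 in the double mutant against Nras(G12D).

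None of the 31 called genes reversed in any alternative. With each gene counted in each alternative, they kept their side of the threshold in 545 cases and lost it in 166. The other named genes, which were not called, reversed in 12 such cases. Genes that are not named were not counted. Tet2 was at 0.028 without Tet2-/- 1 and 3. Without the Y-linked Tet2-/- libraries Xist was at 0.58 and Ddx3y at -3.10, and with the Y-linked covariate Ddx3y was at -0.40. Lamtor3 was at 0.023 by quantile normalization, 0.22 by median centring, 0.11 by voom, 0.10 with the Y-linked covariate, 0.19 without the Y-linked libraries, 0.14 without Tet2-/- 2 (with or without the leukemic libraries) and 0.029 without WT 1, and over all fits without 1 library it ran from -0.12 to 0.14. Depth limits genes whose level in 1 group is near 3 counts, such as Gbp2b, Mrc2 and Bace2, where the size of the fold rests on the added count.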
